A study of Mus musculus with 4 samples.

Results

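The proteasome genes were taken from the deposited table by symbol, as every gene whose symbol is Psm, a letter from a to g and a number, with or without a suffix, together with Pomp. This gave 45 genes of the 10941 listed, and all 45 passed the filter on low counts. By role they are 7 alpha and 8 beta subunits of the 20S core, 6 ATPase and 9 non-ATPase subunits of the 19S regulatory particle, 5 genes of the immunoproteasome, 6 assembly factors and 4 other activator or inhibitor genes. Psma8, Psmd3, Psmd9, Psmd13 and Psmg3 were not analysed here.

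The 4 RNA-seq libraries came from group 2 innate lymphoid cells (ILC2), tissue-resident lymphocytes that secrete type 2 cytokines, sorted from mouse adipose tissue. All mice carried the Il5RFP-cre (R5/+) allele, which expresses Cre recombinase from the Il5 locus and so acts in cells that have switched on Il5. Each library's name and its sample title disagree on genotype, so groups are called by library name. The study's design text designates R5/+ Rptorf/f mice as knockout and R5/+ mice as wild type. The labels number the libraries of each name 1 and 2, and those with a KO name nevertheless bear titles with Rptor+/+ and those with a WT name titles with Rptorf/f, floxed alleles of the gene for Raptor, the scaffold by which the kinase complex mTORC1 holds its substrates. The sources used here state neither age, sex and sorting gate nor how many animals made up a library. The 2 KO-named and 2 WT-named libraries analysed are numbered 1 and 3 as their columns are, so that those numbered 3 match a name group but no single title.

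The proteasome is the barrel-shaped protease that degrades ubiquitin-tagged proteins. Its 20S core stacks outer rings of alpha subunits, which gate the entrance, on inner rings of beta subunits, of which Psmb5, Psmb6 and Psmb7 carry the active sites. The 19S particle caps the core, binds ubiquitin chains, removes them and threads the substrate inward with a ring of ATPases. In lymphocytes, and elsewhere under interferon, Psmb8, Psmb9 and Psmb10 replace the 3 constitutive active subunits to form the immunoproteasome, which alters the peptides made for class I presentation. In mouse fibroblasts active mTORC1 has been reported to raise proteasome gene transcription through the factor encoded by Nfe2l1.

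Rptor itself was measured at 0.971 and 33.9 CPM (read counts scaled to library size and TMM factors) in KO-named libraries 1 and 3, against 14.5 and 76.8 CPM in WT-named libraries 1 and 3. The groups overlapped, and the difference was smaller than its error (log2 fold change −1.39, SE 1.80, edgeR adjusted p = 0.906). All 11 ILC2 markers had reads in every library and summed to 17208 and 13656 CPM in KO-named and 14291 and 17269 CPM in WT-named libraries. All 8 mast cell markers did so too, at 10428 and 7925 CPM in KO-named and 7780 and 6415 CPM in WT-named libraries. Of the 7 stromal markers 2 were listed, and they summed to 824 CPM in KO-named library 1 and to at most 7.58 CPM elsewhere. Of the other lists, the T cell marker Cd3e was at 0 in both KO-named libraries. The part of these cells, and of library depth between 15258779 and 18856226 counts, in the results below was not tested. In such bulk samples fewer cells of a type and less RNA per cell cannot be told apart.

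Proteasome transcripts made up 0.306% (95% Wilson interval 0.303 to 0.309) and 0.409% (0.406 to 0.412) of counts in KO-named libraries 1 and 3, against 0.442% (0.439 to 0.445) and 0.371% (0.368 to 0.373) in WT-named libraries 1 and 3. The groups averaged 0.358% ± 0.0732 and 0.406% ± 0.0507 (SD, n = 2 each) and overlapped. The intervals treat reads as independent and leave out the spread between libraries. Amplified reads lacking molecular identifiers may be copies of 1 molecule, so even the counting error may be larger. Cytosolic ribosomal protein transcripts took 11.4% and 16% of counts in KO-named and 7.81% and 8.03% in WT-named libraries. Outside them the proteasome share was 0.345% and 0.487% in KO-named and 0.48% and 0.403% in WT-named libraries.

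With edgeR's quasi-likelihood method 0 of 45 proteasome genes reached an adjusted p under 0.05, and the background over all 8753 genes tested was 0.0%. At an unadjusted p under 0.05 there was 1 of 45, Psmb9, lower in the KO-named libraries, against a background of 9.81% in either direction, 6.34% lower and 3.47% higher. DESeq2 and limma-voom also called 0 of 45, where they called 4.2% and 2.3% of all genes tested. The median log2 fold change of the 45 was −0.02, with 22 above 0 and 23 below, and that of all genes tested was 0.05. In 6 genes (13.3%) the KO-named pair lay wholly above the WT-named pair, against a background of 17.8%, and in 10 (22.2%) wholly below, against 22.1%. Both shares are near the background. With 2 libraries a group the smallest p an exact permutation test can give is 0.33. In the authors' deposited table the DESeq2 q-values of the 45 genes lay between 0.229 and 0.9997, and the libraries behind that comparison are not named there. Of all 10940 genes with a q-value in it, 456 had one under 0.05.

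**Figure D1:**
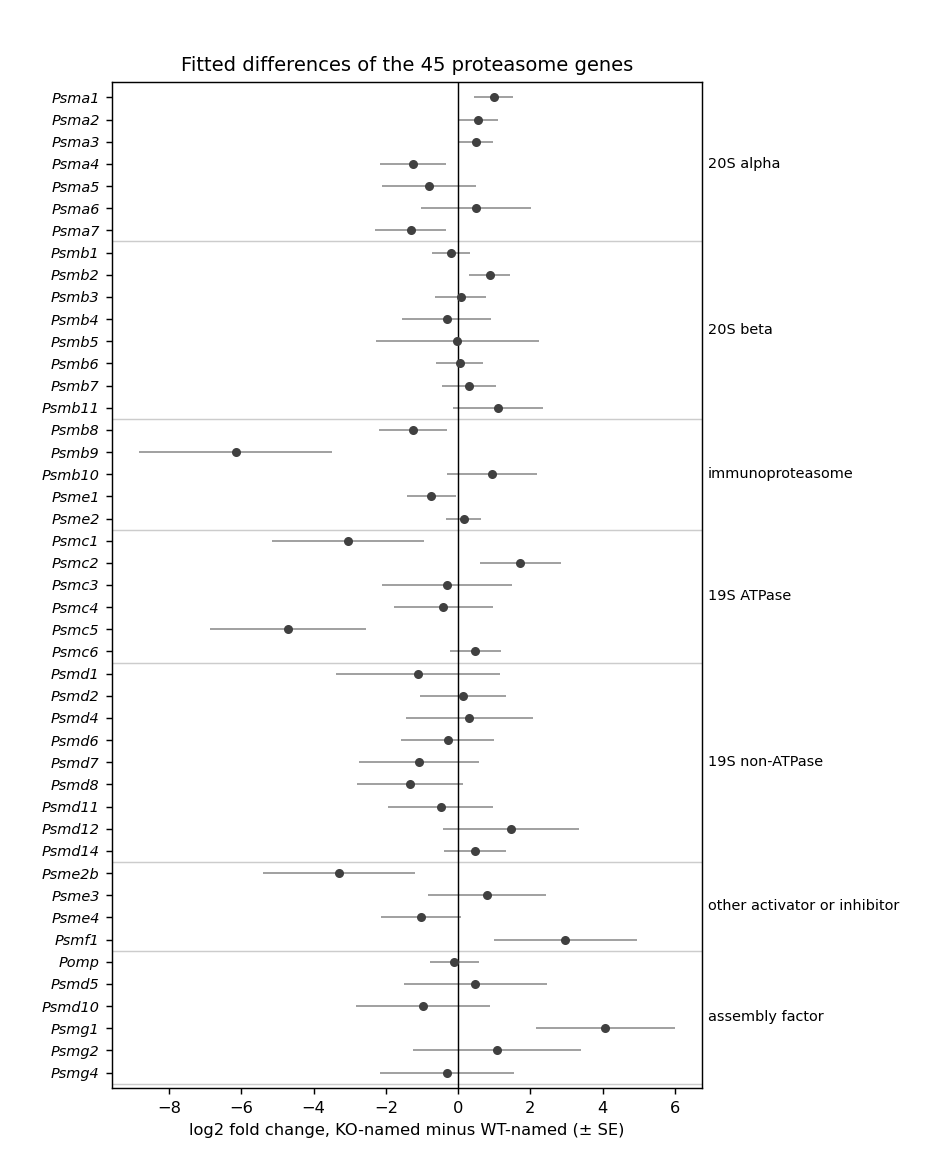
Fitted log2 fold change of each of the 45 proteasome genes, KO-named minus WT-named, by role (points, with bars of 1 SE). The estimates run from −6.16 for Psmb9 to 4.08 for Psmg1, and none passed an edgeR adjusted p of 0.05.

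Among the alpha subunits of the core, which occur in equal number in every particle, 2 of 7 lay lower and 1 of 7 higher without overlap of the groups, against 22.1% and 17.8% of all genes tested. Psma3, the highest of all 29 constitutive core and regulatory subunits per length in every library, was measured at 367 and 679 CPM in KO-named and 271 and 471 CPM in WT-named libraries. Psma2 was measured at 255 and 410 CPM in KO-named and 143 and 309 CPM in WT-named libraries. Both genes overlapped between the groups, with log2 fold changes of 0.50 (SE 0.48) and 0.56 (SE 0.55).

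Psma1 was measured at 223 and 296 CPM in KO-named and 140.1 and 122 CPM in WT-named libraries. Both KO-named libraries were the higher, and the log2 fold change was 0.99 (SE 0.54, edgeR adjusted p = 0.628). Psma4 went the other way, with 53.7 and 37.7 CPM in KO-named and 145 and 72.5 CPM in WT-named libraries, with a log2 fold change at −1.25 (SE 0.91, edgeR adjusted p = 0.761). Psma7, whose product is another ring neighbour, had 590 and 519 reads in KO-named and 2177 and 1572 reads in WT-named libraries, and its log2 fold change was −1.31 (SE 0.98, edgeR adjusted p = 0.772). Leaving out any single library left the sign of these 3 as it was.

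Psma5 and Psma6 instead split the KO-named pair. Psma6 had 0.598 and 272 CPM in KO-named libraries 1 and 3, from 8 and 4643 reads, and 83.4 and 110.4 CPM in WT-named libraries. Psma5 had 2.54 and 114 CPM in KO-named and 92.6 and 111 CPM in WT-named libraries. KO-named library 1 was thus far below the other 3 for both genes, and KO-named library 3 was at or above the WT-named ones. The log2 fold change of Psma6 was 0.49 (SE 1.53) with all libraries and −7.34 without KO-named library 3, the 1 omission of 4 that changed its sign.

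Of the non-catalytic beta subunits, Psmb1, Psmb2 and Psmb3 kept within 1.97-fold over all 4 libraries. Psmb1 was measured at 174 and 214 CPM in KO-named and 234 and 207 CPM in WT-named libraries, and its log2 fold change was −0.19 (SE 0.52, edgeR adjusted p = 0.964). Psmb2 had 218 and 224 CPM in KO-named and 126 and 114 CPM in WT-named libraries. Libraries of a group were within 1.11-fold of each other for Psmb2, and both KO-named ones were the higher (log2 fold change 0.88, SE 0.57, edgeR adjusted p = 0.713). Psmb3 had 131 and 104 CPM in KO-named and 94.5 and 129 CPM in WT-named libraries. Psmb4 was even between the KO-named libraries, at 52.7 and 49.3 CPM, but not between the WT-named ones, at 115 and 10.8 CPM. Psmb11, which forms the thymus-specific core of cortical epithelium, had at most 1.72 CPM in any library.

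**Figure D2:**
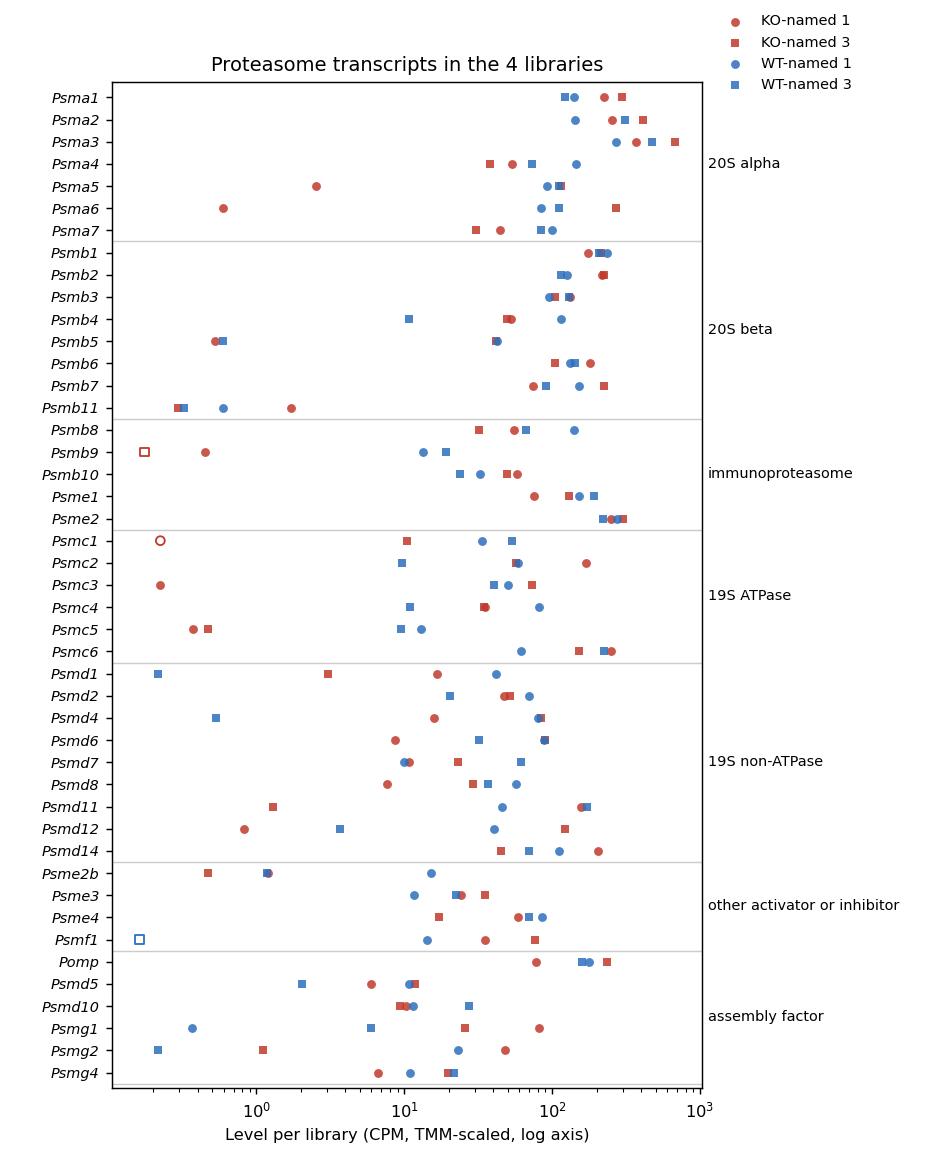
TMM-scaled CPM (log axis) of each of the 45 proteasome genes in the 2 KO-named libraries (red) and the 2 WT-named libraries (blue), with circles for library 1 and squares for library 3. Open symbols mark fewer than 3 reads and are drawn at the level of 3 reads. Psmb1, Psmb2 and Psmb3 lie between 94.5 and 234 CPM in all 4 libraries. Psma6, Psmb5, Psmc1, Psmc3, Psmd1, Psmd4, Psmd12, Psmf1, Psmg1 and Psmg2 each have libraries both below 1 and above 40 CPM.

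The active-site subunits come as partner pairs, each constitutive gene with the immunoproteasome gene that replaces it. Levels within a pair were compared per length, as TPM computed from the counts. Psmb6, with caspase-like activity, was abundant throughout, at 181 and 104 CPM in KO-named and 133 and 143 CPM in WT-named libraries. Its partner Psmb9 had 6 reads and no read in KO-named libraries 1 and 3, against 290 and 356 reads in WT-named libraries 1 and 3, which is 0.448 and 0 CPM against 13.3 and 19.1 CPM. The KO-named pair lay far below the WT-named pair. The log2 fold change was −6.16 (SE 2.67, edgeR adjusted p = 0.493), a size that depends on how so few reads are treated, and it lay between −11.28 and −5.17 with a library left out.

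Psmb8, the partner of the chymotrypsin-like Psmb5, was measured at 55.5 and 32.1 CPM in KO-named and 140.4 and 66.1 CPM in WT-named libraries. Its groups did not overlap, and its log2 fold change was −1.24 (SE 0.94, edgeR adjusted p = 0.783). Psmb5 split both groups, with 0.523 and 41.5 CPM in KO-named libraries 1 and 3 and 42.1 and 0.59 CPM in WT-named libraries 1 and 3. Its log2 fold change of −0.02 (SE 2.26) therefore averages libraries about 79.4-fold and 71.3-fold apart. In TPM Psmb8 was 70.1 and 0.511 times Psmb5 in KO-named and 2.21 and 74.1 times Psmb5 in WT-named libraries.

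Psmb10, the partner of the trypsin-like Psmb7, stood apart from the other immunoproteasome catalytic genes in direction. It was measured at 57.8 and 49.7 CPM in KO-named and 32.5 and 23.9 CPM in WT-named libraries, both KO-named ones being the higher (Psmb10 log2 fold change 0.93, SE 1.25, edgeR adjusted p = 0.911). Psmb7 had 74.0 and 225 CPM in KO-named and 152 and 91.2 CPM in WT-named libraries, and its groups overlapped. Summed over the 3 pairs, the immunoproteasome genes held 25.5% and 13.9% of catalytic TPM in KO-named and 30.7% and 28% in WT-named libraries. Both KO-named shares of this sum were the lower, but of the single pairs only Psmb9 with Psmb6 separated the groups. Psmb9 held 0.29% and 0% of its pair in KO-named and 10.5% and 13.5% in WT-named libraries. Psmb10 held 35.7% and 13.6% of its pair in KO-named and 13.2% and 15.7% in WT-named libraries, which overlap. The share of Psmb8 in its pair overlapped too.

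The activator PA28, encoded by Psme1 and Psme2, opens the core without ubiquitin and is likewise induced by interferon. Psme1 was measured at 74.8 and 130.1 CPM in KO-named and 151 and 191 CPM in WT-named libraries, with no overlap, the log2 fold change being −0.74 (SE 0.67, edgeR adjusted p = 0.851). Psme2 had 248 and 302 CPM in KO-named and 276 and 219.8 CPM in WT-named libraries, and a log2 fold change of 0.15 (SE 0.49). In TPM Psme1 was 0.266 and 0.38 times Psme2 in KO-named and 0.483 and 0.767 times Psme2 in WT-named libraries. Psme2b, a near copy of Psme2, had 15.2 CPM in WT-named library 1 and at most 1.2 CPM elsewhere. Reads of Psme2 and Psme2b cannot be told apart with certainty.

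**Figure D3:**
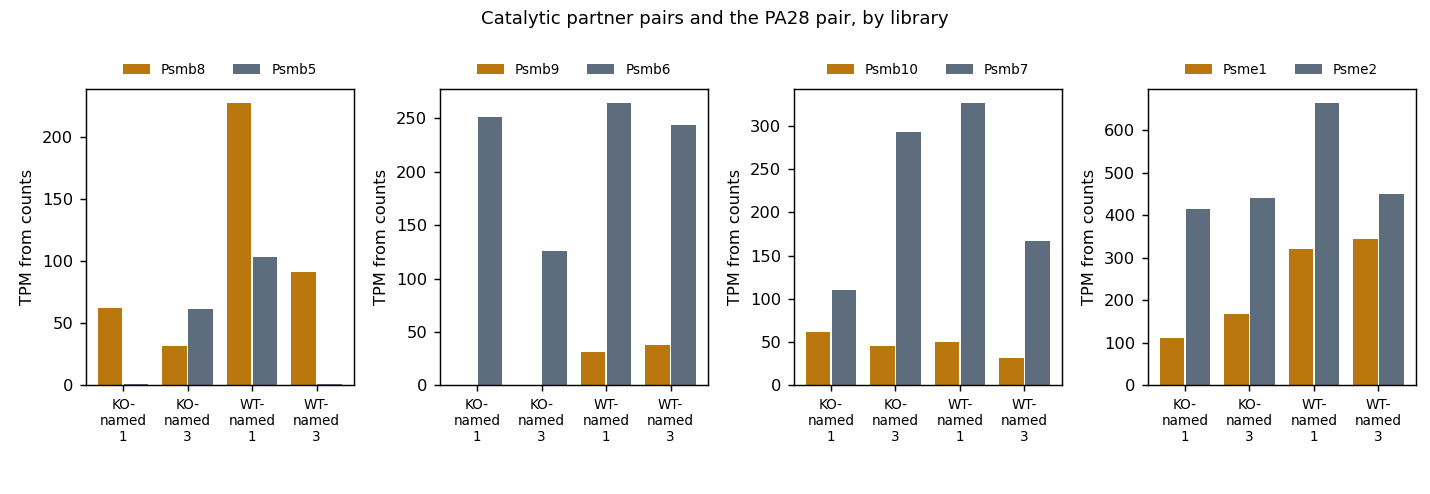
TPM, computed from the counts, of the 3 catalytic partner pairs and of the PA28 pair in KO-named libraries 1 and 3 and WT-named libraries 1 and 3 (bars, 1 library each, immunoproteasome gene in ochre for the catalytic pairs and Psme1 in ochre for PA28). Psmb9 is at 0.73 and 0 TPM in the KO-named and at 31.1 and 38.1 TPM in the WT-named libraries, and Psmb5 is at 0.89 and 1.23 TPM in KO-named library 1 and WT-named library 3.

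The genes with contrasting patterns in these pairs are shown by the 250 bases before their start sites (RefSeq, GRCm38.p6, gene strand). Psmb9 (Entrez 16912, chr17:34182030-34187330, minus strand) and Psmb8 (Entrez 16913, chr17:34198195-34201454, plus strand) lie on either side of Tap1, in the class II region of the major histocompatibility complex. Psmb10 (Entrez 19171) is at chr8:105935728-105938392 and Psmb5 (Entrez 19173) at chr14:54614120-54617995, both on the minus strand. Capitals mark a CCAAT box in Psmb9, a pair of STAT half-sites in Psmb8 and an antioxidant response element in Psmb5.
Psmb9: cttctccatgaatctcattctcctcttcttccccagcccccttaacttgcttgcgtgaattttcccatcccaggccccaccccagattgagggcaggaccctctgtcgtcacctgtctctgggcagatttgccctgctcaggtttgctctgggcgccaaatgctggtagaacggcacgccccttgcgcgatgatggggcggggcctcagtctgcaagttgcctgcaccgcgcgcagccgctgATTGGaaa
Psmb8: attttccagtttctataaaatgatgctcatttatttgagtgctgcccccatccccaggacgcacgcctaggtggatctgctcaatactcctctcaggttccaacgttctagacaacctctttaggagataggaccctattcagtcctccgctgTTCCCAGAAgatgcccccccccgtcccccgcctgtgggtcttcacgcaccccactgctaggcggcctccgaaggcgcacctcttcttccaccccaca
Psmb10: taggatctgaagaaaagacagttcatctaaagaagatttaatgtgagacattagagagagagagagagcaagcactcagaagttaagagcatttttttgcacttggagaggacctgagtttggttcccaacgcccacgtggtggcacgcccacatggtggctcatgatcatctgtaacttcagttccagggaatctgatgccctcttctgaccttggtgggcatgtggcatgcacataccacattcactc
Psmb5: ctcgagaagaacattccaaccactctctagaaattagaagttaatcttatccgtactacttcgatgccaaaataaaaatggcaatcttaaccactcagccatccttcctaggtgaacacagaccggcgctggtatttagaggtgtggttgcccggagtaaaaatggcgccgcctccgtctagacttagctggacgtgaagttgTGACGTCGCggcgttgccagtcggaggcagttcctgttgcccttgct

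These windows are chr17:34187331-34187580, chr17:34197945-34198194, chr8:105938393-105938642 and chr14:54617996-54618245. The letters searched on both strands were CCAAT, TTCNNNGAA for STAT half-sites, TGACNNNGC for the antioxidant element, to which the Nfe2l1 and Nfe2l2 products bind, and GAAA, any 2 bases and GAAA again for the interferon element. TTCNNNGAA reads the same on both strands, so each match counts once per site. Such windows were given for 39 of the 45 proteasome genes and for 27025 genes in all. The antioxidant element was in 4 of 39 (10.3%, Psmb5, Psmb6, Psmc6 and Psmd12) against 11.5% of all genes, and CCAAT was in 14 (35.9%) against 37.5%. STAT half-sites were in 2 (5.13%, Psmb8 and Psmg1) against 8.13%, and the interferon element was in 2 (5.13%, Psmb3 and Psmd4) against 3.46%. These are matches of letters, and no binding was measured.

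The 6 ATPases form the ring that unfolds substrates, and 2 of 6 lay lower without overlap and 0 higher, against 22.1% and 17.8% of all genes tested. Psmc6 was measured at 249 and 152 CPM in KO-named and 61.9 and 225 CPM in WT-named libraries, and Psmc2 at 169 and 56.5 CPM in KO-named and 58.9 and 9.6 CPM in WT-named libraries. Both overlapped between the groups, with log2 fold changes of 0.48 (SE 0.71) and 1.72 (SE 1.12). Psmc5 (chromosome 11) had 5 and 8 reads in KO-named and 282 and 177 reads in WT-named libraries, which is 0.373 and 0.469 CPM against 13 and 9.5 CPM. Libraries of a group were within 1.36-fold of each other for Psmc5, and the log2 fold change was −4.71 (SE 2.16, edgeR adjusted p = 0.514). It lay between −4.89 and −4.49 with any library left out.

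Psmc1 had 1 and 177 reads in KO-named and 727 and 996 reads in WT-named libraries. Both KO-named libraries were the lower (log2 fold change −3.05, SE 2.11, edgeR adjusted p = 0.742), and the value was −9.07 without KO-named library 3 and −2.06 without KO-named library 1. Psmc3 had 3 and 1241 reads in KO-named and 1101 and 756 reads in WT-named libraries, so that KO-named library 1 alone stood apart. Psmc4 had 35.2 and 34.7 CPM in KO-named and 81.7 and 11 CPM in WT-named libraries. Of the ring's 6 genes, Psmc1, Psmc3 and Psmc5 thus had under 10 reads in KO-named library 1.

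The 9 non-ATPase subunits include ubiquitin receptors and the lid that houses the deubiquitinase Psmd14. Psmd14 was measured at 204 and 44.9 CPM in KO-named and 111 and 70.0 CPM in WT-named libraries, and Psmd11, a lid scaffold, at 156 and 1.29 CPM in KO-named and 45.5 and 173 CPM in WT-named libraries. Of the 9, 1 lay lower without overlap (11.1%) and 0 higher, against 22.1% and 17.8% of all genes tested. This was Psmd8, with 7.69 and 29.1 CPM in KO-named and 56.6 and 36.8 CPM in WT-named libraries (log2 fold change −1.34, SE 1.47, edgeR adjusted p = 0.883). Psmd12 had 0.822 and 122 CPM in KO-named and 40.7 and 3.7 CPM in WT-named libraries, so that each group held a high and a low library.

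The ubiquitin receptor Psmd4 had 15.8 and 84.1 CPM in KO-named and 79.9 and 0.537 CPM in WT-named libraries. Psmd1, a large scaffold of the base, had 16.6 and 3.05 CPM in KO-named and 41.7 and 0.215 CPM in WT-named libraries. For both, WT-named library 3 was the lowest. Its partner scaffold Psmd2 stayed between 20.5 and 69.6 CPM. Psmd6 had between 8.66 and 90.1 CPM and Psmd7, which pairs with Psmd14 in the lid, between 9.93 and 61.9 CPM, and both overlapped between the groups.

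The other activators and the inhibitor were less abundant. Psme3, the nuclear PA28 gamma, was measured at 24 and 35.1 CPM in KO-named and 11.6 and 22.4 CPM in WT-named libraries, and Psme4, the large activator PA200, at 58.3 and 17.2 CPM in KO-named and 84.9 and 69.7 CPM in WT-named libraries. The groups did not overlap for either, with log2 fold changes of 0.80 (SE 1.63) and −1.03 (SE 1.10). Psmf1, the inhibitor PI31, had 35.0 and 77.0 CPM in KO-named and 14.2 and 0.107 CPM in WT-named libraries, the last from 2 reads. Both KO-named libraries were the higher (log2 fold change 2.97, SE 1.98, edgeR adjusted p = 0.727), and the value lay between 2.08 and 8.92 with a library left out, the highest without WT-named library 1.

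The assembly factors did not move as a group, with 3 of 6 above 0 and 3 below. Psmg1, which with Psmg2 forms the dimer that starts the alpha ring, was measured at 80.9 and 25.9 CPM in KO-named and 0.368 and 5.96 CPM in WT-named libraries. The KO-named pair was the higher. The log2 fold change of 4.08 (SE 1.93) had an adjusted p of 0.535 by edgeR, 0.0572 by DESeq2 and 0.297 by limma-voom. It lay between 3.03 and 7.2 with a library left out. Its dimer partner Psmg2 split both groups, with 48.2 and 1.11 CPM in KO-named and 23.2 and 0.215 CPM in WT-named libraries.

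Pomp, which matures the core and is then degraded by it, was the most abundant assembly factor, at 77.2 and 236 CPM in KO-named and 178 and 159 CPM in WT-named libraries. Psmg4 had 6.65 and 19.9 CPM in KO-named and 10.9 and 21.8 CPM in WT-named libraries. Psmd10, or gankyrin, a chaperone of the base, had 10.3 and 9.33 CPM in KO-named and 11.4 and 27.4 CPM in WT-named libraries. The base chaperone Psmd5 had 5.98 and 11.8 CPM in KO-named and 10.7 and 2.04 CPM in WT-named libraries. Of these 4 only Psmd10 did not overlap between the groups, and its log2 fold change was −0.98 (SE 1.86, edgeR adjusted p = 0.945). By the same rule 22.1% of all genes tested lay lower and 17.8% higher.

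Because subunits of a ring are present in equal number in the particle, their transcripts were also compared with each other per length, in TPM computed from the counts. The highest of the 7 alpha subunits was 493 and 17.7 times the lowest in KO-named libraries 1 and 3, and 3.13 and 6.17 times in WT-named libraries 1 and 3. For the 7 constitutive beta subunits the ratio was 418 and 5.41 in KO-named and 4.49 and 283 in WT-named libraries, with Psmb5 the lowest in each. For the 6 ATPases it was 2978 and 252 in KO-named and 5.5 and 21.6 in WT-named libraries. The largest ratios rest on few reads, and low counts were not raised to a floor here. In KO-named library 1 the lowest genes were Psma6 at 8 reads, Psmb5 at 7 and Psmc1 at 1. Psmc5 had 8 reads in KO-named library 3, and Psmb5 had 11 in WT-named library 3. WT-named library 1 was the most even in each of these sets.

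Of the 29 constitutive core and regulatory subunits, some lay over 10-fold below the median TPM of the 29 in the same library. They numbered 8 and 3 in KO-named libraries 1 and 3, and 1 and 4 in WT-named libraries 1 and 3. In KO-named library 1 they were Psma5, Psma6, Psmb5, Psmc1, Psmc3, Psmc5, Psmd1 and Psmd12, and in KO-named library 3 Psmc5, Psmd1 and Psmd11. In WT-named library 1 it was Psmd7, and in WT-named library 3 they were Psmb5, Psmd1, Psmd4 and Psmd12. By their medians, core transcripts exceeded regulatory ones in every library. The median was 68.3 and 282 TPM for alpha, 238 and 194 TPM for constitutive beta and 8.87 and 28.2 TPM for 19S subunits in KO-named libraries. In WT-named libraries it was 219.8 and 163 TPM for alpha, 290.2 and 238 TPM for constitutive beta and 58.6 and 39.7 TPM for 19S subunits.

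**Figure D4:**
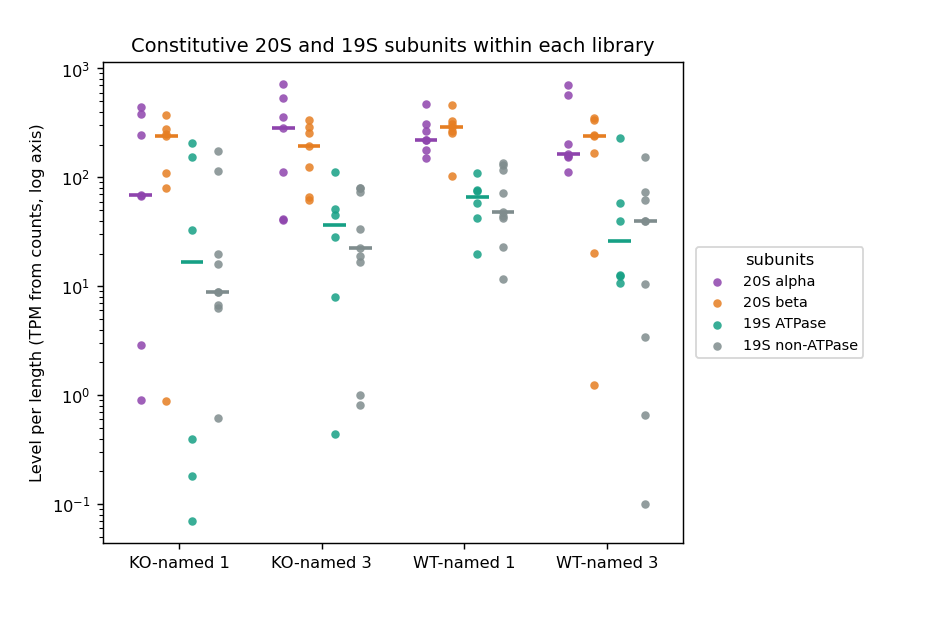
TPM (log axis), computed from the counts, of the 29 constitutive 20S and 19S subunits in each library, by type of subunit (points, 1 gene each; bars, the median of the type). In WT-named library 1 all 29 lie between 11.8 and 472 TPM, whereas the lowest is at 0.07, 0.44 and 0.1 TPM in KO-named library 1, KO-named library 3 and WT-named library 3.

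Libraries of the same group were over 10-fold apart, with levels under 3 reads set to 3, for 9 of 45 proteasome genes in the KO-named pair, against a background of 24.4% of all genes tested. In the WT-named pair it was also 9 of 45, against 13.8%. In 3 genes, Psmb5, Psmd12 and Psmg2, both pairs were that far apart, against 6.03% of all genes, and in 15 (33.3%) at least 1 pair was, against 32.2% of all genes. Genes under 10 reads numbered 6 and 4 of 45 in KO-named libraries 1 and 3 and 1 and 4 in WT-named libraries 1 and 3, where the background was 18.8%, 14.2%, 3.43% and 8.39% of all genes tested. Across the 45 genes Spearman's correlation of CPM was 0.55 between the KO-named and 0.72 between the WT-named libraries, and 0.62 to 0.74 across groups. Over all genes tested it was 0.65 between the KO-named and 0.76 between the WT-named libraries, and 0.63 to 0.72 across groups. Genes share their libraries and depth, so the values are a description.

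**Figure D5:**
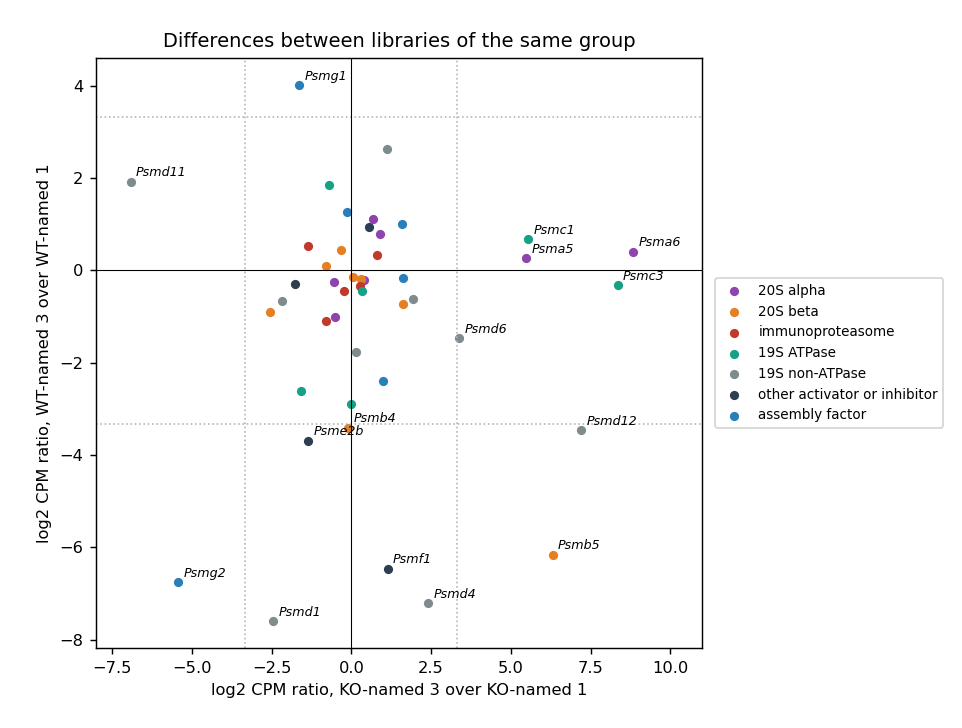
Log2 ratio of CPM between the 2 KO-named libraries (horizontal axis) and between the 2 WT-named libraries (vertical axis) for the 45 proteasome genes, coloured by role. Dotted lines mark 10-fold, and the 15 named genes lie beyond them on at least 1 axis, with Psmb5, Psmd12 and Psmg2 beyond them on both.

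Genes that act around the proteasome were read from 4 further lists, and none of their 65 tested members passed edgeR over all genes. At an unadjusted p under 0.05, 4 of 14 proteasome-associated genes lay lower and 0 higher, 1 of 11 genes of transcriptional control lay higher, 2 of 24 genes of ubiquitin supply lay higher, and 0 of 16 interferon and class I genes were in either set. Of all genes tested 6.34% lay lower and 3.47% higher by that rule. Their median log2 fold changes were 0.15, −0.51, 0.26 and 0.16, against 0.05 for all genes tested.

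Among associated proteins, Zfand5, which stimulates the proteasome, had 733 and 1152 CPM in KO-named and 815 and 791 CPM in WT-named libraries, and the 19S subunit gene Sem1 had 178 and 219.6 CPM in KO-named and 165 and 238 CPM in WT-named libraries. Both overlapped. Fbxo7, a partner of the inhibitor PI31, had 5 and 4 reads in KO-named libraries, 0.373 and 0.235 CPM, against 11.1 and 48.8 CPM in WT-named ones. Zfand2a, an arsenite-inducible adaptor, had 4 and 0 reads in KO-named libraries, 0.299 and 0 CPM, against 8.78 and 46.9 CPM in WT-named ones. Both genes lay lower in both KO-named libraries, with an adjusted p of 0.433 each by edgeR of 0.00147 and 0.00254 by DESeq2, and of 0.0568 and 0.0319 by limma-voom.

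In transcriptional control, Nfe2l1 had 1.64 and 0.587 CPM in KO-named and 5.15 and 13.8 CPM in WT-named libraries, with no overlap, the log2 fold change being −3.08 (SE 2.02, edgeR adjusted p = 0.721). Its relative Nfe2l2, the antioxidant regulator, had 13.7 and 146 CPM in KO-named and 126 and 174 CPM in WT-named libraries. Ngly1, the glycanase that processes the Nfe2l1 product, had 584 and 349 CPM in KO-named and 145 and 134 CPM in WT-named libraries. Both KO-named libraries were the higher for Ngly1, the log2 fold change being 1.74 (SE 0.50, edgeR adjusted p = 0.433).

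Of the ubiquitin genes, Ubb had 1664 and 3392 CPM in KO-named and 3011 and 3173 CPM in WT-named libraries. Rps27a, a fusion of ubiquitin with a ribosomal protein, had 2827 and 3691 CPM in KO-named and 1239 and 1859.7 CPM in WT-named libraries (log2 fold change 1.07, SE 0.34), with an adjusted p of 0.433 by edgeR, 0.434 by DESeq2 and 0.0479 by limma-voom. The shuttle factor Ubqln2 had 209.7 and 202 CPM in KO-named and 57.7 and 12.8 CPM in WT-named libraries (log2 fold change 2.55, SE 0.86, edgeR adjusted p = 0.433). Both KO-named libraries were the higher for Rps27a and Ubqln2, and Ubb overlapped.

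Among interferon and class I genes, B2m had 9369 and 12359 CPM in KO-named and 7061 and 12756 CPM in WT-named libraries, and H2-K1 had 4212 and 2444 CPM in KO-named and 3601 and 3149 CPM in WT-named libraries. Both overlapped, with log2 fold changes of 0.13 (SE 0.34) and −0.02 (SE 0.34). Irf9 had 26.4 CPM in WT-named library 3 and at most 1.27 CPM elsewhere. Tap1, named after its values were seen for its place between Psmb9 and Psmb8, had 13.7 and 0.117 CPM in KO-named and 9.83 and 21.0 CPM in WT-named libraries. Pparg, of the study's title, had 44.2 and 34.6 CPM in KO-named and 78.9 and 95.3 CPM in WT-named libraries (log2 fold change −1.14, SE 0.98, edgeR adjusted p = 0.837).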

How the data were processed

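RNA of ILC2 sorted from adipose tissue was isolated with Trizol and sequenced as Smart mRNA-seq libraries, per the labels' protocols. Reads were placed on mm10, per the submitters' processing notes, whereas the aligner, the counting program and its strand setting are not stated in the sources used here. The authors deposited estimated counts per gene, with 20% to 21.6% of a library's values not whole, and these were rounded for the tests. The authors' deposited TPM of both libraries numbered 1 gave each gene's relative length, as count over TPM, and TPM of all 4 libraries were computed from the counts with these lengths. Between those libraries the lengths were within 10% of each other for 87.2% of 4208 genes. The authors also deposited p-values and q-values from DESeq2, per the file headers. Another 10 columns with per-sample values stayed unused. The columns with number 1 match a sample each, and those with number 3 match only a group, from which just the counts were used.

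All 10941 genes entered 1 fit of the KO-named over the WT-named libraries with edgeR 4.0.16 (R 4.3.3), using TMM scaling, filterByExpr, which left 8753 genes, the quasi-likelihood test and Benjamini-Hochberg adjustment at 0.05. To obtain an SE, the absolute log2 fold change was divided by the root of F. Alternatives used DESeq2 1.42.0, limma-voom (limma 3.58.1), other scalings and filters, a block and the omission of each library. The fit was tested on simulated data. Totals were 15258779 and 18856226 counts in KO-named and 18151495 and 17868383 in WT-named libraries, and 3 counts correspond to 0.138 to 0.224 CPM.

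Libraries of a group differed beyond sampling noise (chi-square over degrees of freedom 444.7 in the KO-named and 273.5 in the WT-named pair), so both counted as replicates. Whether they derive from different animals is not stated, so p-values measure only how far these samples spread, possibly for technical reasons. Positions and promoter windows come from RefSeq (GRCm38.p6, the assembly of mm10), where all 45 genes were matched by gene number. Named genes are Rptor, Pparg, the catalytic, activator, inhibitor and assembly genes, the 2 of highest level, smallest p and largest change in each other role, and the 2 of highest level and smallest p in each further list. The remaining members are given because each member is accounted for, and Tap1 was chosen after its values were seen. A gene that the rule names is not reported here. The members and lists were chosen with earlier results of these data known.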

Additional observations from a re-analysis of the deposited data

How the results depend on the processing

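No proteasome gene passed an adjusted p of 0.05 under any alternative, the lowest being 0.0572 by DESeq2, 0.0508 by limma-voom and 0.0911 without KO-named replicate 3. Over all genes tested edgeR called 0, DESeq2 368 and limma-voom 201, and with a library left out the count was 0 to 7. Deviations of same-numbered libraries from their group means correlated at −0.007. With 2 libraries a group the deviations mirror each other, so the opposite pairing gives the same value with its sign reversed. The value shows no common deviation of same-numbered libraries across genes. It does not settle whether they were prepared as pairs. A fit with the replicate number as a block called 25 genes and 0 proteasome genes. The median log2 fold change of the 45 genes was −0.43 with library size alone and 0.11 with RLE size factors, where that of all genes was −0.28 and 0.13, and −0.39 to 0.14 with a library left out. With a library left out, 11 to 18 of the 45 genes lay higher without overlap (24.4% to 40.0%) and 13 to 20 lower (28.9% to 44.4%), against 28.6% to 37.9% and 33.1% to 41.1% of all genes tested. The log2 ratio of immunoproteasome to constitutive catalytic counts was −1.17 and −2.18 in KO-named and −0.81 and −1.11 in WT-named libraries, a difference in means of −0.71, and of −1.22 to −0.21 with a library left out.

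Of 49 named genes, 11 changed sign under another setting. With RLE size factors and with DESeq2 alike, Psmb5 was 0.11, Sem1 0.05 and H2-K1 0.06. With library size alone, Psmb6 was −0.29, Psmb7 −0.05, Psme2 −0.19, Zfand5 −0.10 and B2m −0.17. By limma-voom Psmb6 was −0.04, Psmb4 0.39, Psmd14 −0.01, Psmd12 −0.13 and Sem1 0.02. With the replicate block Psmb6 was −0.01, Psmb4 0.52 and Psmd12 −0.24, and with no filter Psmb6 was −0.06. With a library left out, 21 named genes changed sign, over log2 ranges of Rptor −5.58 to 0.39, Psmb5 −5.32 to 5.14, Psmb6 −0.40 to 0.38, Psmb7 −0.72 to 0.90, Psme2 −0.01 to 0.31, Pomp −1.14 to 0.50, Psmg2 −3.36 to 6.76, Psmg4 −1.32 to 0.39, Psmd5 −0.18 to 2.10, Psma3 −0.03 to 1.04, Psmb4 −1.11 to 2.21, Psmc6 −0.20 to 1.76, Psmd14 −1.0 to 1.16, Psmd11 −6.40 to 0.80, Psmd12 −4.73 to 4.04, Zfand5 −0.14 to 0.53, Sem1 −0.28 to 0.35, Ubb −0.91 to 0.14, B2m −0.25 to 0.70, H2-K1 −0.46 to 0.31, Irf9 −5.02 to 0.64. Of the 45 proteasome genes 25 changed sign and 33 moved over 1.5-fold with a library left out. The cause was not tested. Reads under 10 in single libraries limit what can be compared.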
